A study of Mus musculus with 18 samples.

Results

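The gland of FVB/NJ mice after a completed cycle of pregnancy, lactation and involution was compared with the gland of adult FVB/NJ females of 10 weeks that had not been made pregnant, by counting RNA in single epithelial cells. Of the 149371 cell barcodes of the series, 32441 belonged to the 4 libraries used here: 1 post-involution library and 3 adult libraries, A10, P7 and D12. Cells with at least 500 detected genes and under 20% mitochondrial transcripts numbered 30023. They were placed in a class by the keratins and marker genes alone. Basal cells had more transcripts of Krt5 and Krt14 than of Krt8 and Krt18, and luminal cells the reverse. A luminal cell was taken as a luminal progenitor (LP) with 2 or more transcripts of Kit, Elf5, Aldh1a3, Cd14 and Plet1, if these outnumbered Prlr, Cited1, Areg, Pgr and Esr1, and as a mature luminal (ML) cell with 3 or more of the latter set, if these were the larger. This gave 27359 cells: 3526 basal, 2747 LP and 3714 ML cells in A10, 1176, 786 and 1114 in P7, 2237, 1288 and 1794 in D12, and 2692, 2303 and 3982 post-involution. The genes of the gates are used as definitions, and their levels are no result.

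Involution removes most of the secretory alveoli once milk is no longer withdrawn, and the gland returns to a ductal tree that resembles the one before pregnancy. The basal layer is contractile and lies on the basement membrane. LP cells are the luminal cells from which the milk-producing alveolar cells arise, and ML cells carry most of the receptors for estrogen, progesterone and prolactin and relay these hormones to their neighbours. The comparison asks what differs in each class in a gland that has already lactated.

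The sources differ on how many mice a library held. The study's methods give 3 to 4 for every stage of the cycle, while its legends give 3 to 4 for the adult and 2 for the other stages, post-involution included. Cells of the adult and post-involution glands were sorted by CD24 and CD29 after removal of Ter119, CD31 and CD45 positive cells, so the share of each class also depends on the sort. The label places the post-involution gland at 3 weeks after birth, whereas the study's text counts the 3 weeks from another event, weaning. No source used here states the age of these mice or their estrus stage. Only for its comparison of adult strains does the study say that estrus was not staged. With 1 post-involution library, earlier pregnancy, age, hormonal state and the library itself cannot be told apart. The study states that FVB/N adult and post-involution samples were handled in the same processing round, but not which adult library that was, so no value within that round can be given. Counts of unique molecules (UMIs) totalled 54003067 in the post-involution library and 9920346 (P7) to 69643560 (A10) in the adults. P7 stood apart from the other 3: its barcodes had 14 bases in place of 16, its kept cells had a median of 2576 UMIs against 4210 to 5324, and ribosomal protein genes took 8.90% to 10.7% of its counts against 24.1% to 33.5%. Its median cell had 0.402% mitochondrial transcripts against 3.13% to 4.28%. The study names only the v2 kit and does not say whether P7 was made with another. A10 and D12 share the barcode length of the post-involution library, and no source decides between them. The libraries A10 and post-involution had 198 barcodes in common (180 by chance), and D12 and post-involution 70 (86.2 by chance). Of the markers that the gates did not use, all 8 basal, all 7 LP and all 7 ML markers had their highest level in the class they mark, in each of the 4 libraries. The LP markers include the milk gene Csn3, so they do not separate progenitors from milk-producing alveolar cells.

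The 3 classes were present in other proportions post-involution. ML cells made up 44.4% of the gated cells (exact binomial 95% interval 43.3 to 45.4), above the 37.2% of A10, 36.2% of P7 and 33.7% of D12. Basal cells made up 30.0% (29.0 to 30.9), below the 35.3%, 38.2% and 42.1% of the same adults. LP cells, at 25.7% (24.8 to 26.6), lay inside the adult range of 24.2% to 27.5%. Intervals here cover counting error only. A single library against 3 cannot reach significance in a permutation test (the smallest two-sided exact p is 0.5), so a position outside the adult range is a description of these 4 libraries. When every cell was thinned to 1500 UMIs before gating, which left out 675 post-involution and 125 to 590 adult cells, the ML share was 48.1% against 35.1% to 39.4%, the basal share 30.0% against 34% to 41.7%, and the LP share, now 21.8%, lay below the 23.3% to 27.9% of the adults. With at least 1000 genes per cell, both the basal share (26.1%, adults 26.1% to 42.8%) and the ML share (47.6%, adults 34.7% to 47.6%) came inside the adult range because of P7, the shallowest library. A purity limit asked for 5 or more keratin transcripts and at most 1 of fibroblast, immune, endothelial and mural markers. The basal share was then 29.1% (28.0 to 30.1) post-involution and 29.5% (28.5 to 30.5) in A10, so these counting intervals overlapped.

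**Figure D1:**
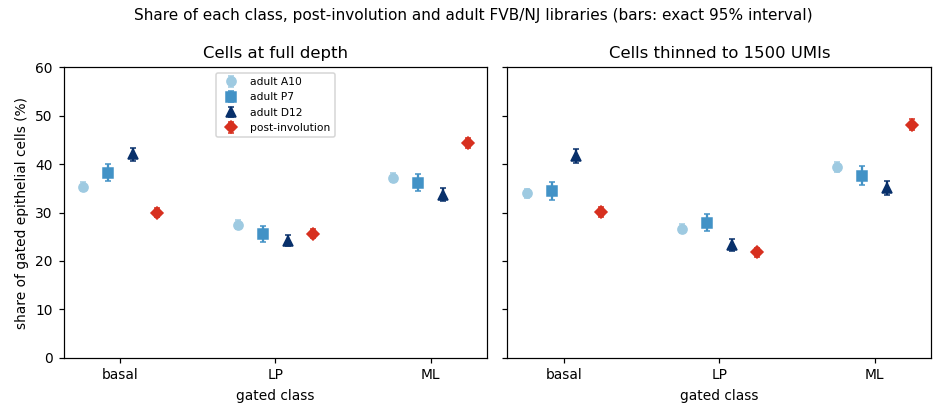
Share of gated epithelial cells (%) that were basal, LP or ML in the 3 adult FVB/NJ libraries (blue) and the post-involution library (red), at full depth (left) and with each cell thinned to 1500 UMIs (right). Bars are exact 95% binomial intervals; the post-involution ML share (44.4%, thinned 48.1%) is above and its basal share (30.0% in both) below all 3 adult libraries.

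Cells that passed the LP gate in the post-involution gland carried large amounts of milk RNA. The 8 milk protein genes (the caseins Csn1s1, Csn1s2a, Csn1s2b, Csn2 and Csn3, the whey proteins Wap and Lalba, and the milk mucin Glycam1) took 11.4% of all LP counts, against 3.82% in A10, 2.21% in P7 and 0.208% in D12. The adult libraries differed widely among themselves, and the post-involution library lay above the highest of them. The share was spread over the class rather than held by a few cells. The median LP cell had 5.31% milk transcripts against 1.55%, 0.807% and 0.0829%, and 51.6% of LP cells (49.6 to 53.7) had 5% or more, against 18.8%, 7.89% and 0 of 1288 cells, which allows a share of up to 0.286%. The 10th and 90th percentiles of post-involution LP cells were 1.04% and 21.1%. Milk RNA is also free in a cell suspension. Fibroblast-gated cells had 5 or more transcripts of Col1a1, Col1a2, Col3a1, Dcn and Lum, and more of these than of the keratins. This gate was drawn independently of the keratin gates, so a cell could be counted in both. In fibroblast-gated cells, which do not make milk, the median cell of the post-involution library had 0.183% and the summed counts 0.288%. In those of A10 the median was 0.0280% and the sum 0.211%, with 1 of 244 cells at 5% milk or more, and the sums were 0.00195% in P7 and 0.00285% in D12. The median post-involution basal cell had 0.171% and the median ML cell 0.159%, both below the fibroblast-gated median. The summed ML share of 0.557% was carried by few cells, with a 75th percentile of 0.213%, a 99th of 4.63% and 0.954% of cells at 5% or more. The part of free RNA in the basal and ML values was not tested. Cells that passed the LP gate at the other FVB/NJ stages are set beside these. Their milk share was 13.5% and 14.0% at pregnancy day 12.5, 34% and 35.5% at day 18.5, and 75.2% and 77.3% at lactation day 10. At lactation day 10, 98.7% to 100% of these cells had 5% milk or more, so the gate there takes in milk-producing cells. Post-involution, 11.2% of LP cells had 20% milk or more, against 2.15% in A10, 0.763% in P7 and 0 in D12. The gate does not separate progenitors from alveolar cells. How much of the post-involution LP class was alveolar was not tested. The study describes alveolar cells as abundant in pregnancy and lactation.

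The distance from the adults differed between milk genes. Levels are given as scaled CPM, the counts of a gene in the summed cells of a class relative to the library total and corrected by the TMM factors that align libraries on the bulk of their genes. The late whey gene Wap was at 1939 scaled CPM against 61.4 in A10, 5.49 in P7 and 0.312 in D12, a level 31.6-fold above the nearest adult library. Csn2, the beta-casein gene, was at 41165 against 9064, 4003 and 0, and Csn1s2a at 49819 against 11314, 6111 and 2.34, which is 4.54-fold and 4.40-fold above A10. Lalba, the cofactor of lactose synthesis, was at 4215 against 3923, 1313 and 93.4, and Csn3 at 15034 against 11389, 5117 and 1816, which is 1.07-fold and 1.32-fold above A10. All 8 lay above the adult range, where 25.2% of the 18632 genes with any count in LP cells did and 14.8% lay below it. Lists are counted here over all their members, whatever their level, since Glycam1 and Csn1s2b, for example, reach 20 CPM in the post-involution library alone. Over the 5130 genes at 20 CPM or more, 24.0% lay above the adult range, 19.4% below it, 0.897% at least 2-fold above and 0.117% at least 2-fold below (5 CPM added to each side). Mitochondrial transcripts, a sign of RNA quality, were also higher. Of 13 mitochondrial genes, 12 lay above the adult range in LP cells, 5 in basal and 6 in ML cells, and none below. The median LP cell had 3.47% mitochondrial transcripts against 2.35%, 0.282% and 2.12% in A10, P7 and D12, the post-involution median was also the highest in basal (4.21%) and ML cells (4.56%), and its part in the other values was not tested.

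Glycam1 was the one gene called in LP cells by edgeR's quasi-likelihood test, which takes its spread from the 3 adult libraries and assumes that the lone library varies like them. It was read 18596 times in post-involution LP cells and once in all adult LP cells together, in A10. It entered the test through the post-involution library alone. The scaled levels were 1318 CPM against 0.0618 in A10 and 0 in P7 and D12, and the adjusted p (edgeR, Benjamini-Hochberg) was 0.0186. With cells thinned to 1500 UMIs the call was lost. A single adult read leaves no estimate of this gene's own spread, so the call rests on spread borrowed from other genes. The ratio to the pooled adult counts was 34086, with a counting interval from 6117 to 1.35e+06. Glycam1 was seen in 23.1% of post-involution LP cells, or 13.4% (11.8 to 15.1) of cells thinned to 1500 UMIs, in 5.52% of fibroblast-gated cells of the same library, and in 1 of 2747 LP cells of A10. The gene is also known from endothelial venules. The 5 endothelial markers summed to 6.80 scaled CPM in post-involution LP cells and 3.90 to 10.1 in the adults. Among 12866 genes tested in LP cells, 1 was called (0.00777%), 194 were under 0.05 before adjustment, and 6 were called by DESeq2, which included Fabp3, Pigr and Saa3.

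The promoters of these genes are shown because STAT5, the factor that prolactin activates, is known to act on milk genes through sites of the form TTCNNNGAA. RefSeq gave promoters for 6 of the 8 milk genes on GRCm38.p6. In the 250 bases before the start, 3 of the 6 held this palindromic motif, which reads the same on both strands, and 7.02% of 32851 promoters of all genes did. The matches began 145 bases before the start in Glycam1 (chr15:103565082-103565331, minus strand), 93 in Csn2 (chr5:87699426-87699675, minus strand) and 100 in Csn1s1 (chr5:87665958-87666207, plus strand). No match was in this window of Wap, Lalba or Csn1s2a. The windows follow the RefSeq starts, which differ from those of GENCODE. The Csn1s2a window ended at base 87774449 and its GENCODE gene starts at 87774567, and the bases between were not scanned. The GENCODE gene of Csn2 reaches to base 87699630, inside its window. Capitals mark the match.
Glycam1: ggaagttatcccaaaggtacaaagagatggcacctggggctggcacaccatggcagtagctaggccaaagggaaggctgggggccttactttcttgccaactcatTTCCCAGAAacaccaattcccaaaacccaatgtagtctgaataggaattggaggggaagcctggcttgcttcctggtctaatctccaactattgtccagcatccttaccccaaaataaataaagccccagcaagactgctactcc
Csn2: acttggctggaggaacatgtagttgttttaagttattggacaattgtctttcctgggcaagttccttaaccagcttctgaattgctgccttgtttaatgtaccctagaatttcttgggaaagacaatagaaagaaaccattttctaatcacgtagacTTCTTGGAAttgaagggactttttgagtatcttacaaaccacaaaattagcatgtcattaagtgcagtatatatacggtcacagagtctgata
Csn1s1: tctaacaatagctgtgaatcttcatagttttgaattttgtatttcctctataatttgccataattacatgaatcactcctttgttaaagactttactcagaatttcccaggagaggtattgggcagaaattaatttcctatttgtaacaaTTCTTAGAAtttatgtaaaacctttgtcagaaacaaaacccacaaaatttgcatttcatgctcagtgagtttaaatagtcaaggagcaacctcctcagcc

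**Figure D2:**
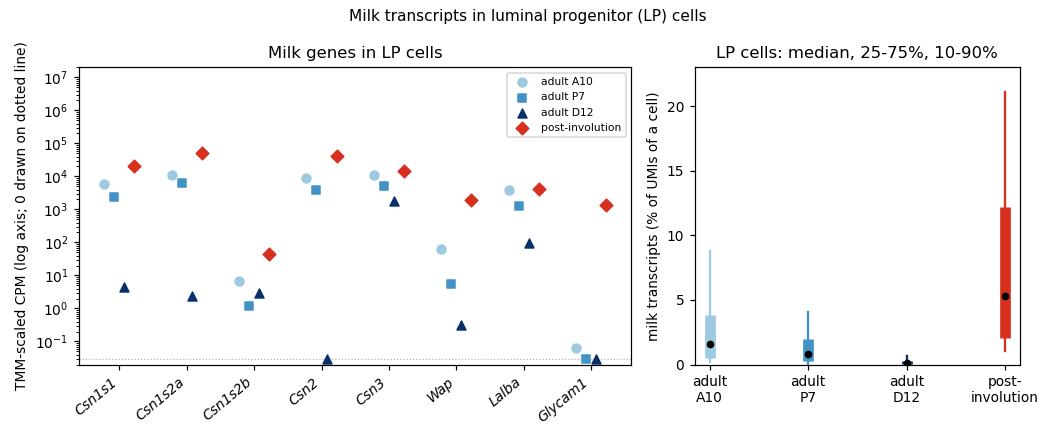
Left, scaled CPM of the 8 milk protein genes in LP cells of each library on a log axis, with zeros on the dotted line. Right, milk transcripts as a share of the UMIs of an LP cell: dot, median; thick bar, 25th to 75th percentile; thin line, 10th to 90th percentile. All 8 genes are highest post-involution, Glycam1 at 1318 against at most 0.0618, and the medians are 5.31% post-involution and 0.0829% to 1.55% in the adults.

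Genes of milk fat were next. Of all 21 members of the fatty acid and milk fat list, 15 lay above the adult range in LP cells and none below. At 20 CPM or more there were 16, of which 6 passed through the post-involution library alone. Fabp3 (chr4:130308595-130315463), the fatty acid carrier of the lactating gland, was at 459 scaled CPM against 10.1 in A10, 4.27 in P7 and 1.56 in D12. Thrsp (chr7:97412938-97417730), which supports the making of medium-chain fatty acids, was at 147 against 13.5, 7.62 and 0.156. The lipid droplet gene Cidea was at 113 against 8.10, 29.3 and 4.68, and the lipase Lpl at 78.7 against 23.5, 9.45 and 2.96. Plin2, which coats milk fat droplets, was at 957 and inside the adult range of 174 to 1036. None of the 21 members tested passed edgeR. Adipocytes use several of these genes too. Their defining markers (Adipoq, Plin1, Cidec and Car3) summed to 0.64 scaled CPM in post-involution LP cells and 0.31 to 4.57 in the adults.

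Defence proteins of milk gave a mixed picture. Of all 17 members, 9 lay above the adult range and none below. There were 16 at 20 CPM or more, 3 of them through the post-involution library alone. Pigr (chr1:130826684-130852249), which carries IgA into milk, was at 128 scaled CPM against 7.17, 8.53 and 3.27 in A10, P7 and D12, and was seen in 9.89% of thinned post-involution LP cells against 0.566% to 1.18%. The serum amyloid genes were higher as well. Saa1 was at 458 against 57.2, 11.3 and 0.780, and Saa2 at 290 against 48.3, 7.01 and 0.156. Reads may not tell these near-identical genes apart, so the separate values are uncertain. Lactoferrin (Ltf) was at 2363 against a highest adult of 2105, and Trf and Spp1 lay inside the adult range, with D12 far below the rest.

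Fewer genes were lower in LP cells: 6 lay 2-fold or more below the adult range, and 1 of these is a gene of the gates. Ly6d, a surface protein of the Ly6 family, was at 59.4 scaled CPM against 263, 427 and 514. Hey1 (chr3:8663359-8667256), a transcription factor induced by Notch, was at 30.5 against 96.3, 143 and 111. Nrarp, another Notch-induced gene but not among the 6, was at 11.7 against 25.7 to 41.3. Of the 15 Notch genes, 4 lay above and 3 below the adult range. Gpx3 was at 25.6 against 114, 1060 and 147, and Tfap2b at 6.59 against 30.8, 62.5 and 44.4. Genes that mark ML cells were also low here, with 8 of 14 below the adult range and 1 above, among them Fgb at 4.11 against 7.54 to 114. The 7 ML markers that the gates did not use had 2 below and 2 above. Lists of other cell types were low too: 7 of 16 contractile genes lay below and none above. Basal identity genes had 7 of 16 below and 3 above, and fibroblast markers 5 of 6 below and none above. The part of RNA from other cell types in these values was not tested. The LP list itself had 3 of 16 above and 4 below.

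In ML cells, Calca lay furthest above the adults by the distance with 5 CPM added to each side, gate genes and numbered gene models left out. By plain fold against the nearest adult library, Glycam1 was further (1124 against 45.5). Of 16 steroid targets and paracrine signals, 6 lay above the adult range and 2 below, where 24.1% of the 19588 genes with any count in ML cells lay above and 13.6% below. Calca (chr7:114631478-114636357), which encodes calcitonin and the peptide CGRP, was at 1149 scaled CPM against 0.0394 in A10, 13.3 in P7 and 25.2 in D12. It was seen in 35.9% of thinned post-involution ML cells (34.3 to 37.4) against 0%, 1.58% and 2%, and in 4.29% of fibroblast-gated cells of that library at full depth, where the ML share was 45.2%. Wfdc12 (chr2:164189231-164190608), a small protease inhibitor, was at 1044 against 33.6, 16.7 and 4.50. Tmprss6 (chr15:78439667-78468634), a membrane protease, was at 145 against 5.36, 9.43 and 5.31, and the secreted factor Bmp3 (chr5:98854415-98884396) at 284 against 12.1, 37.1 and 3.75. No adult library exceeded 37.1 in any of these 4 genes. Plcb1, a phospholipase in receptor signalling, was at 107 against 10.4 to 15.6, and Hlf, a clock-output factor, at 29.3 against 1.5 to 2.05. Socs2, a target and inhibitor of STAT5, was at 204 against 46.3 to 68.8. Of 10 STAT5 pathway genes, 1 lay above the adult range and 3 below in ML cells. In LP cells 3 of the 10 lay above and none below. B2m, the light chain of class I molecules, was at 2790 against 1002 to 1058, and at 979 against 372 to 454 in LP cells. Of 11 class I genes in ML cells, B2m alone lay above the adult range and 2 lay below.

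Other ML genes were low. Upk3a (chr15:85017141-85022547), a uroplakin, was at 6.59 scaled CPM against 368, 175 and 151, 23-fold below the nearest adult library, and was seen in 0.613% of thinned cells (0.384 to 0.926) against 7.18% to 15.2%. R3hdml was at 15.9 against 219, 296 and 117. Ly6d (chr15:74762056-74763620), abundant in adult ML cells at 3258, 2734 and 3675, was at 512, and was seen in 31.7% of thinned cells against 80.3% to 95.4%. The synaptic gene Syn2, the calcium-binding S100a14, the forkhead factor Foxq1 and the exchange factor Rasgrf1 all lay between 2.57 and 3.69, against adult levels of 33.4 or more. Tgm2, a transglutaminase, was at 96.9 against 407 to 582. Of 14 ML identity genes, 8 lay below the adult range and 3 above, with Aoc1, a diamine oxidase, at 0.912 against 17.7 to 247 and the water channel Aqp5 at 123 against 437 to 954. The hormone-lineage factors Foxa1 and Gata3 were among those above, at 181 and 391 against highest adults of 151 and 297. Of the 7 ML markers that the gates did not use, 3 lay above the adult range and 2 below.

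Over the 5529 genes at 20 CPM or more in ML cells, 62 (1.12%) lay 2-fold or more above and 37 (0.669%) 2-fold or more below the adult range, 19.4% lay above it by any amount and 21.3% below. edgeR called 1 of 14004 (0.00714%), again Glycam1 (44.3 scaled CPM against 0.0394, 0 and 0, adjusted p = 0.0418). After thinning, 2.42% of ML cells and 1.43% (0.173 to 5.07) of fibroblast-gated cells held it, which could not be told apart at this depth, and the edgeR call was lost (adjusted p = 0.243). In ML cells too Glycam1 entered the test through the post-involution library alone, and 1 adult read left no estimate of its own spread. Before adjustment, 245 genes were under 0.05. DESeq2 called 29, and these included Wfdc12, Tmprss6, Hlf, Plcb1, Upk3a, Syn2, Foxq1, Rasgrf1, S100a14 and R3hdml. Calca, whose adult levels ranged from 0.0394 to 25.2, was called by neither tool.

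The same genes are set beside the other FVB/NJ stages, as CPM without the TMM factors and with no test, since all stages are read against the same adult libraries. Calca in ML cells was at 4508 and 3740 at pregnancy day 12.5, 2547 and 2299 at day 18.5, 1483 and 6.45 at lactation day 10, and 1141 post-involution. Wfdc12 ran from 3223 to 8558 in the 4 pregnancy libraries and was at 1037 post-involution. Bmp3 was at 73.7 and 81.7 at day 12.5, 736 and 968 at day 18.5 and 282 post-involution. Ly6d was at 0 to 2.17 in the pregnancy libraries, 509 post-involution and 2842 to 3643 in the adults. Upk3a was at 0 to 23.9 in pregnancy, 6.54 post-involution and 150 to 321 in the adults. The pregnancy and lactation libraries held 171 to 357 ML cells each, so their levels rest on fewer cells than the 3982 of the post-involution library. Milk genes took 34.8% and 58.3% of the ML counts of the 2 lactation libraries, which lowers the CPM of all other genes there. In the library at 58.3%, the median ML cell had 6.21% milk and the 90th percentile was 80.3%. The part of this in the lactation levels was not tested.

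**Figure D3:**
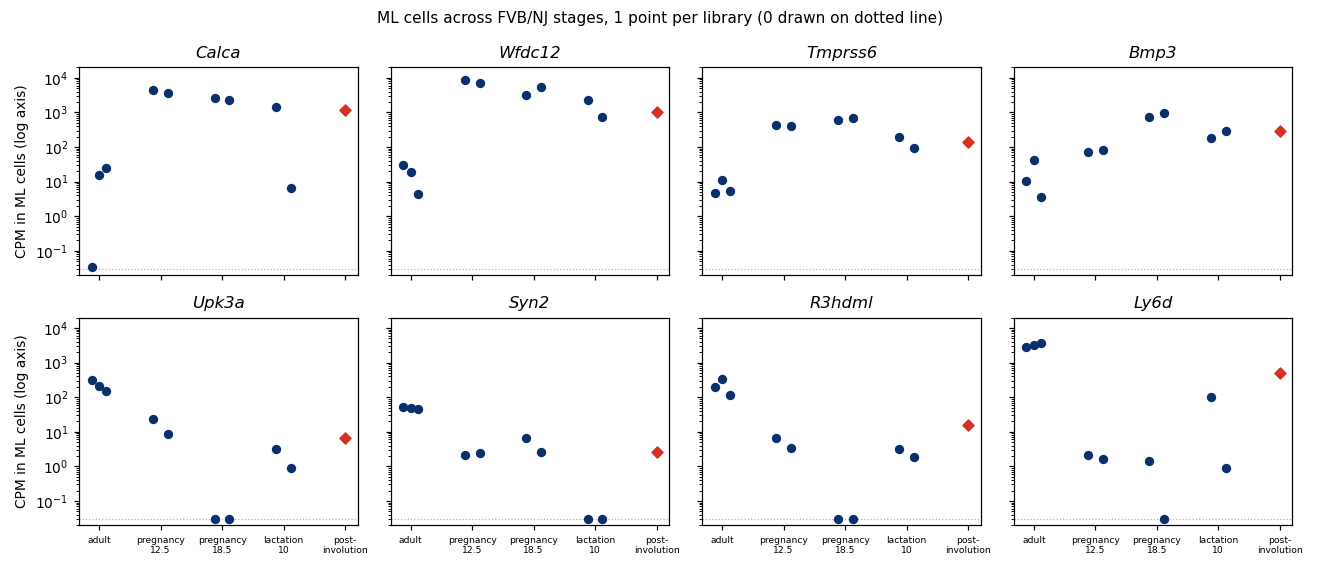
Levels in ML cells (CPM, log axis, 1 point per library, zeros on the dotted line) of 4 genes high and 4 genes low post-involution, for the adult, pregnancy and lactation libraries (blue) and post-involution (red). Calca, Wfdc12, Tmprss6 and Bmp3 are at most 43.1 CPM in the 3 adults and at 144 to 1141 post-involution, and Upk3a, Syn2, R3hdml and Ly6d are higher in each adult than post-involution.

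In basal cells, the contractile genes stood on both sides of the adult range. Of 16, 7 lay above and 4 below, where 24.5% of the 19118 genes with any count in basal cells lay above and 14.6% below. Acta2, smooth muscle actin, was at 7815 scaled CPM against 8441 to 16469, and the oxytocin receptor gene Oxtr at 372 against 193 to 269. Among all 5685 genes at 20 CPM or more, 53 (0.932%) lay 2-fold or more above and 26 (0.457%) 2-fold or more below the range, 20% lay above by any amount and 22.6% below. edgeR called 0 of 13274 (0%), with 256 under 0.05 before adjustment, and 12 were called by DESeq2.

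Outside the milk list and Wfdc12, the basal genes furthest above the adults included Fabp4 (151 scaled CPM against 22.5, 1.40 and 4.96) and Thsd7a (78.2 against 6.25, 8.38 and 9.82), a thrombospondin-repeat protein seen in 10.2% of thinned post-involution basal cells and 0.923% to 1.79% of adult ones. Fabp4 marks adipocytes and capillary endothelium. Beside it, the adipocyte markers summed to 6.24 scaled CPM (adults 0.27 to 2.09), the endothelial markers to 11.8 (4.54 to 6.91) and the mural markers to 34 (3.49 to 11.7), and their part in the basal values was not tested. Adamts5, a matrix protease, was at 42.8 against 3.14 to 6.58, and Egr1, an immediate early gene, at 2741 against 866 to 926. Immediate early and heat shock genes as a whole, which also respond to dissociation, took 3.88% of basal counts post-involution, 5.13% in P7 and 1.56% and 1.78% in A10 and D12. Of 26 such genes, 11 lay above the adult range and 1 below. Their part in the other basal values was not tested.

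The growth hormone and IGF list had members on both sides in basal cells, with 5 of 13 above the adult range (among them Igf2r, Irs2 and Igfbp6) and 3 below. Igfbp3 (chr11:7206086-7213923), which binds insulin-like growth factors, was at 85.9 scaled CPM against 328, 320 and 443, and Igfbp2 at 124 against 253 to 574. Irs2, an adaptor of the insulin and IGF receptors, was at 206 against 30.0 to 139. Among the basal genes furthest below the adults, Emid1 (chr11:5106265-5152257), a matrix protein, was at 44.0 against 238, 196 and 239, and was seen in 6.03% of thinned basal cells against 21.5% to 29.9%. Sostdc1, an inhibitor of BMP and WNT signalling, was at 19.6 against 75.4 to 178, and Etv4, an FGF-responsive factor, at 5.57 against 29.7 to 63.5. The TNF receptor gene Tnfrsf18 was at 3.23 against 24.8 to 31.1. Of 24 basement membrane and matrix genes, 7 lay below the adult range and 1 above, while of 15 Notch genes 6 lay above and 1 below. The 6 fibroblast markers, a cell type that also makes matrix, summed to 132 scaled CPM in post-involution basal cells and 290, 297 and 189 in A10, P7 and D12, and their part in the matrix values was not tested.

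Cell cycle genes lay low in basal cells. Of all 24 members, 16 lay below the adult range and none above, where 14.6% of all genes with a count in basal cells lay below. There were 9 at 20 CPM or more, 5 of them through the adult libraries alone. Pclaf was at 1.0 scaled CPM against 5.24 to 75.2, and Tyms, an enzyme of thymidine synthesis, at 4.46 against 18.5 to 21.6. None of the 24 tested passed edgeR's adjusted threshold. After thinning, 12.9% of post-involution basal cells had 2 or more transcripts of the list against 15.1%, 19.6% and 18.8% in A10, P7 and D12. At full depth the basal share of 35.4% lay inside the adult range of 30.1% to 57.1%. In ML cells, where 7 of 24 lay below the adult range and none above, the shares were 4.93% against 11%, 12.5% and 7.38%, and at full depth 27.8% against 34.3% to 58.0%. In LP cells the post-involution share of 12.6% lay between 9.67% and 14.5%, and at full depth its 49.1% was above the adult 29.6% to 48.8%.

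**Figure D4:**
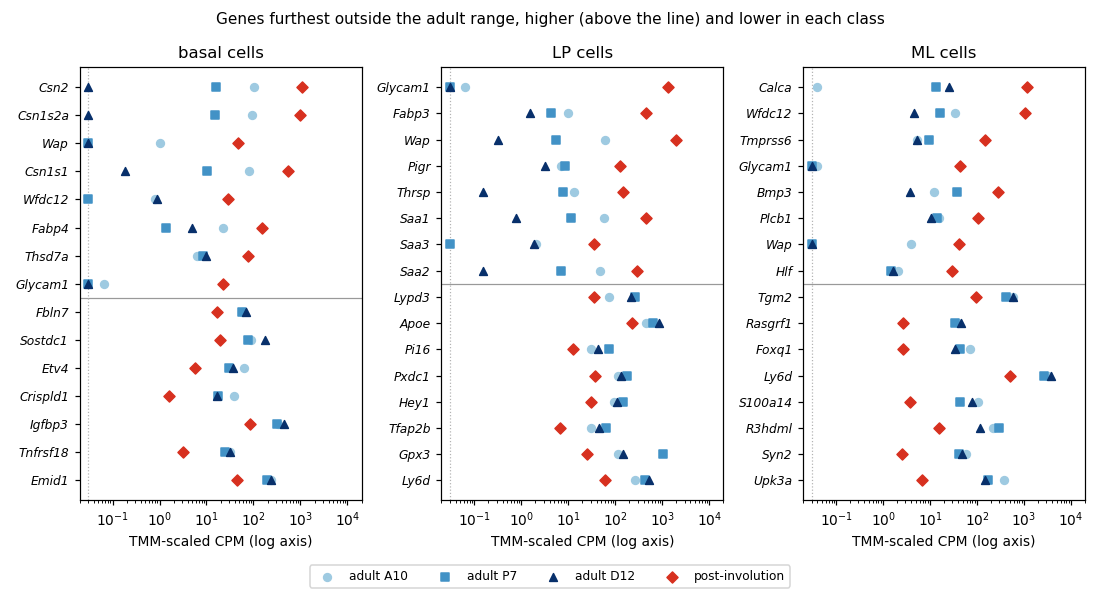
Scaled CPM (log axis, zeros on the dotted line) in basal, LP and ML cells of the genes furthest outside the adult range, 8 above the horizontal line in each panel, and 7 (basal) or 8 (LP, ML) below it. Adult libraries are blue and the post-involution library red; it lies beyond all 3 adult points in every row, by the rule that chose the genes.

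**Figure D5:**
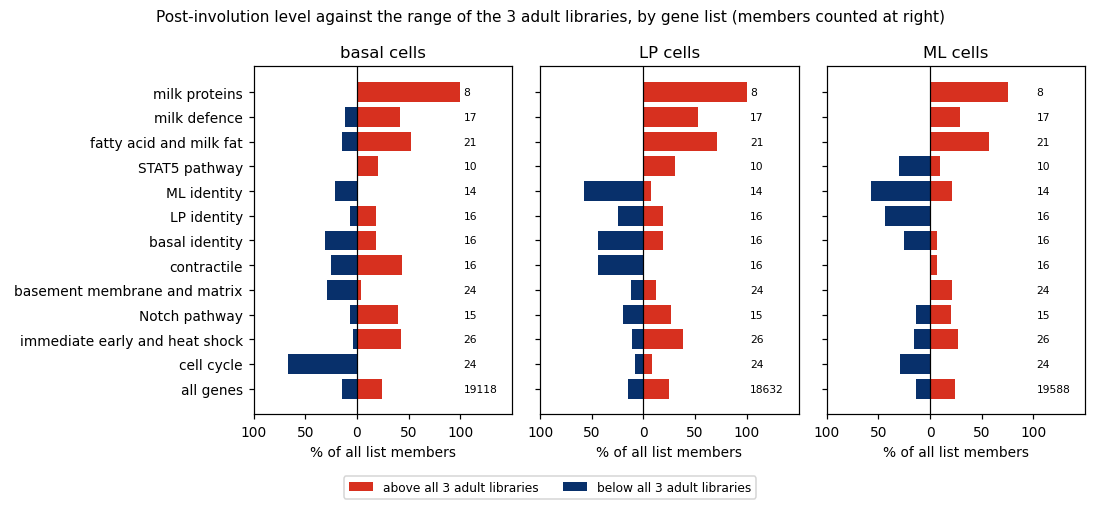
Percent of all members of each gene list that lay above (red) or below (blue) all 3 adult libraries post-involution, in basal, LP and ML cells, with the number of members at the right. Over all genes with a count, 24.1% to 25.2% lay above and 13.6% to 14.8% below; milk proteins stand at 8 of 8 above in LP cells, and cell cycle genes at 16 of 24 below in basal cells.

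Genes that stood 2-fold or more above the adult range in all 3 classes were few: the milk genes Csn1s1, Csn1s2a, Csn2, Wap and Glycam1, with Calca, Wfdc12 and the gene model Gm10260. Calca was at 23.3 scaled CPM in basal and 25.5 in LP cells and Wfdc12 at 28.5 in basal cells, against 1149 and 1044 in ML cells. After thinning, Calca was seen in 2.63% of basal, 3.19% of LP and 0.714% (0.0181 to 3.92) of fibroblast-gated cells of that library. The part of free RNA was not tested here either. Gpx3 was the 1 gene 2-fold or more below the range in all 3.

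By the size rule itself, leaving out an adult library narrows the range and so tends to raise the number of genes beyond it. The size of the rise differed with the library left out. Without P7, the library that stood apart, the counts 2-fold or more beyond the range were 143 in basal, 89 in LP and 149 in ML cells, against 79, 52 and 99 with it. Without A10 they were 296, 259 and 216, and without D12 133, 79 and 143. edgeR called 8 basal, 47 LP and 35 ML genes without A10, 0, 1 and 2 without P7, and 12, 8 and 4 without D12.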

How the data were processed

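RNA of single cells was counted in 18 libraries made with 10x Chromium, of which 3 adult FVB/NJ libraries and 1 post-involution library were compared and 6 libraries of pregnancy and lactation were set beside them. The authors deposited raw UMI counts per gene and barcode for each library, made with Cell Ranger (3.0.2 per the file headers, 3.1.0 in the submitters' processing notes) on mm10. No filter on doublets was applied, and the study's own upper limits served as an alternative. Groups came from the labels.

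Counts were summed per library and class. edgeR 4.0.16 (TMM, filterByExpr, quasi-likelihood test, Benjamini-Hochberg, threshold 0.05) was fitted to the 4 sums of a class; the post-involution library was assumed to vary like the adults. DESeq2 1.42.0 was an alternative. The size rule took genes at 20 CPM or more and a 2-fold distance from the nearest adult library, 5 CPM added to each side. The text names the 8 highest and 8 lowest genes of each class by that distance (mitochondrial, ribosomal protein and gate genes and numbered gene models left out) and members of gene lists; 1 of the basal genes is not reported here. Adamts5 and Gm10260, and the genes given as DESeq2 calls, were named after their values were seen. Lists were counted over all members with no floor, a choice made after seeing the data, beside the same over every gene with a count. Thinning used seed 1. The gates, lists and members were chosen with earlier results of these data known. Gene coordinates are from GENCODE vM21 (GRCm38, the same assembly as mm10). Intervals are exact and cover counting error only. Alternatives were other cell filters, gates, depths, scalings, floors and tools, and leaving out each adult library.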

Additional observations from a re-analysis of the deposited data

How the results depend on the processing

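Of the class shares, thinning to 1500 UMIs moved the LP difference from the adult mean from -0.10 to -4.12 percentage points and the ML difference from 8.65 to 10.8, and the milk share difference in LP cells from 9.34 to 6.91 points (4.49 as the median of cells). The basal and ML shares came inside the adult range with at least 1000 genes per cell. Genes called by edgeR moved as follows, where the counts were 0 in basal, 1 in LP and 1 in ML cells. DESeq2 called 12, 6 and 29, no low-count filter gave 29, 6 and 25, and thinning gave 2, 0 and 0 (Glycam1 was lost in LP and ML cells). Taking out the milk list left 0 in LP and ML cells, no TMM factors gave 1 in basal cells, the purity limit 2 in basal cells, and all 10 FVB/NJ libraries 17 in ML cells. Leaving out 1 adult library gave 0 to 12 in basal cells, 1 to 47 in LP cells and 2 to 35 in ML cells, and size counts of 133 to 296, 79 to 259 and 143 to 216. A floor of 50 CPM gave 50 genes in basal and 53 in ML cells. Without TMM factors the median log2 difference over all LP genes was -0.34 in place of -0.05. The 48 pairs of gene and class furthest outside the adult range (16 a class) were followed across the edgeR and DESeq2 fits. None changed direction in any fit that held it. The pairs were chosen for lying beyond every adult library in these same data, which left little room for a reversal. Their unchanged direction is therefore no independent check. The other list members named were not followed across these fits. Depth limits P7 most. No paired analysis was possible because the post-involution group has 1 library.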
